A study of Mus musculus with 9 samples.

Results

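Macrophages of the male reproductive tract, taken from the testis and the epididymis, were set against the microglia of the brain to find what both tract populations share. Reads per gene were measured in 3 testis, 3 epididymis and 3 brain libraries, which are all 9 libraries of the series, and the 6 tract libraries form 1 side of the comparison. All libraries came from C57BL/6J mice, with no transgene, culture or treatment in the labels, and their ages are not stated. Each tissue was cut up, digested for 40 minutes with collagenase and DNase and enriched on 40% Percoll. Live CD45+ Ly6c- CD11c- CD11b+ F4/80+ cells were then sorted. The labels give mouse number 1 to all testis libraries, 2 to all epididymis libraries and 3 to all brain libraries, so organ and mouse number cannot be told apart. They do not say that replicates came from separate animals, so the spread on which the p-values rest may be technical only. The protocol speaks of pooling testis and epididymis suspensions in wording that does not say whether the organs were ever mixed.

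Of 15434 genes in the table, 11766 had a normalised read count of 10 or more in at least 3 libraries and were tested. A gene was counted as shared between testis and epididymis when its 6 tract values all lay on 1 side of its 3 brain values and limma's adjusted p was below 0.05. The difference tested was the average of the testis and epididymis means minus the brain mean, on the scale of log2(normalised reads + 1), which understates the change of low genes. Below, a log2 difference is this quantity and is positive where the tract was higher.

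Microglia are the resident macrophages of the brain tissue proper. Their identity depends on transforming growth factor beta and the transcription factor SALL1, and on the receptor CSF1R, and it is recognised by genes such as P2ry12 and Tmem119. Macrophages of the testis lie beside the steroid-producing Leydig cells and around the seminiferous tubules, and those of the epididymis line the duct in which sperm mature. Tissue macrophages outside the brain can present peptides to CD4+ T cells on major histocompatibility complex (MHC) class II molecules, take up lipid and dying cells, and answer type I interferon with a set of antiviral genes.

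Libraries held 2727092 to 4458688 reads assigned to genes, and 10551 to 12302 genes had a value above 0. Pearson's r of log2 values across the tested genes, which are not independent replicates, was 0.787 to 0.832 among brain libraries, 0.695 to 0.760 among testis libraries and 0.676 to 0.698 among epididymis libraries. It was 0.617 to 0.687 between the tract organs, 0.635 to 0.703 between epididymis and brain and 0.556 to 0.659 between testis and brain. The 4 Y-linked genes Ddx3y, Eif2s3y, Kdm5d and Uty had between 42.2 and 554 normalised reads in every library. Ptprc, the gene of CD45, had 3004, 3152 and 2259.5 normalised reads in testis, 2727, 2575 and 3529 in epididymis and 1657, 1849 and 1359.9 in brain, and Adgre1, the gene of F4/80, had 100.4, 231 and 240.2 in testis, 684, 346 and 331 in epididymis and 88.3, 42.4 and 84.4 in brain. Both were higher in all 6 tract libraries, with log2 differences of 0.82 and 2.00 (adjusted p = 0.0075 and 0.0066), and both calls were lost without the variance trend. Itgam, the gene of CD11b, went the other way, with 451, 348 and 283 normalised reads in testis, 1134, 901 and 1247 in epididymis and 2094, 2451 and 2047 in brain (log2 difference -1.82, SE 0.20, adjusted p = 2.4e-05). Itgax, the gene of the CD11c that the sort excluded, had 265, 209 and 294 normalised reads in epididymis, 0, 0 and 21.4 in testis and 0 in every brain library.

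Of the 11766 genes tested, limma called 1051 (8.93%) at an adjusted p below 0.05. Complete separation of the 6 tract values from the 3 brain values, with no test, was found for 1365 genes (11.6%). Both conditions held for 844 genes (7.17%), of which 482 were higher in the tract (4.10% of those tested) and 362 lower (3.08%). The shared genes included large differences in both directions: 130 of the 482 and 105 of the 362 reached a log2 difference of 4 or more in size, and 48 and 47 stayed under 1. No brain library held a read of 30 of the higher genes, and no tract library a read of 33 of the lower ones. The filter on low values let 57 genes through that reached 10 in brain libraries alone. They had to differ, and 49 of them are among the 362. Of the genes named below these are Aqp4, Atp8a2, Crybb1, Myo18b, S100a8, S100a9 and Upk1b, and their place in a list's count supports nothing. A further 655 genes reached 10 in the tract alone. As 3 of the 6 tract libraries were enough for the filter, they did not have to separate from brain. They could be shared only as higher. Of the 655 genes, 66 are among the 482. These include Apoc1, Axl, Cd36, Cd69, Cxcl1, Dcn, Ifi211, Ldhc, Mki67, Oas1g, Oas2, Oas3, Pf4, Prm1, Slamf7, Tnp1, Tnp2 and Wfdc17. The median log2 difference over all tested genes was -0.14, and the differences below are to be read against it. It was -0.28 with libraries rescaled to the same total, -0.18 with TMM factors and -0.12 after quantile normalization.

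Leaving out a brain library changed the number of shared genes more than leaving out any library of the tract. Without brain replicate 1, 2 or 3 the shared genes numbered 568, 593 and 720, with 176, 187 and 216 lower in the tract, against 811 to 912 without any 1 tract library. With 1 variance prior for all levels (no variance trend) they numbered 554. Testis replicate 1 and epididymis replicate 3 lay away from the rest of their organ on principal component 3 (14.2% of the variance), at 99.1 and 97.2, where the other 4 tract libraries lay between -94.6 and -45.7. Without both, 978 genes were shared, 550 higher and 428 lower. The plot of differences by level shows where the 844 genes lie.

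**Figure D1:**
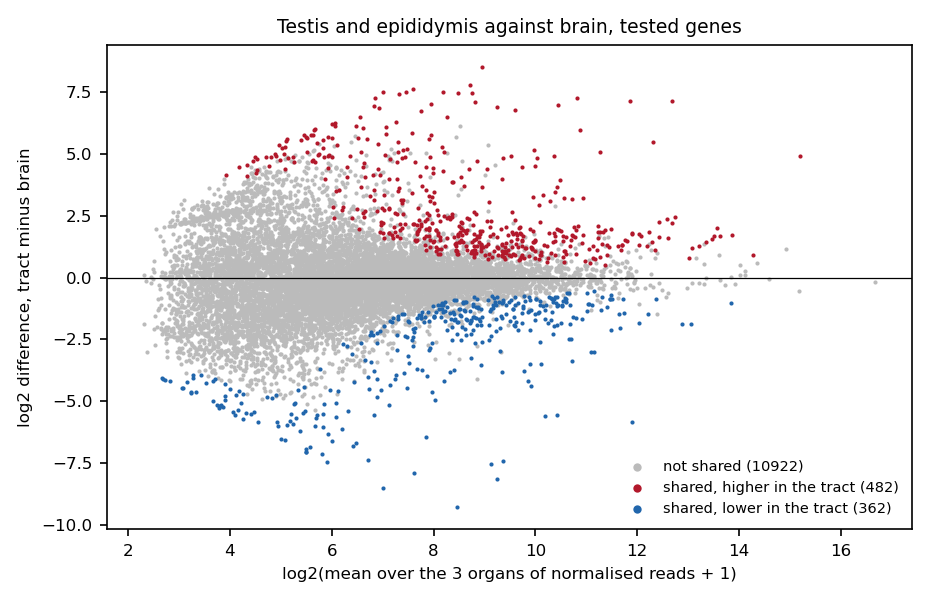
Each point is 1 of the 11766 tested genes. The horizontal axis is the log2 of the mean of the 3 organ means of normalised reads plus 1, the vertical axis the log2 difference, tract minus brain. Red points are the 482 shared genes higher in testis and epididymis and blue points the 362 lower, and at low levels only large differences were called.

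The genes with the largest differences on the higher side are described first. The chemokine gene Pf4 (platelet factor 4, chr5:90772435-90773383, plus strand) had 692, 768 and 1494 normalised reads in testis, 568, 408 and 519 in epididymis and 5.46, 0 and 0 in brain (log2 difference 8.51, SE 0.63, adjusted p = 5.7e-07). Every tract library lay far above the highest brain library, and 2 of the 3 brain libraries held none. Axl, a receptor kinase that binds dying cells through a bridging protein, had 311, 575 and 619.8 in testis, 683, 812 and 774 in epididymis and 0.911, 0 and 9.78 in brain (log2 difference 7.78, SE 0.65, adjusted p = 1.6e-06), and it was low in all 3 brain libraries. Cd36, a scavenger receptor for lipoproteins and fatty acids, had 634, 318 and 277 in testis, 719, 779 and 457 in epididymis and 0.911, 0 and 9.78 in brain (log2 difference 7.49, SE 0.69, adjusted p = 4.1e-06). Clec12a, an inhibitory C-type lectin receptor, had 503, 539 and 587 in testis, 823, 857 and 701 in epididymis and 10.9, 0 and 7.999 in brain (log2 difference 7.11, SE 0.64, adjusted p = 3.1e-06). These 4 genes were plainly expressed in both tract organs, which were not called different for any of them, and were near 0 in the brain.

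Trps1, a zinc-finger repressor related to the GATA factors, had 678, 1016 and 904 normalised reads in testis, 1058, 879.8 and 895 in epididymis and 36.4, 0 and 10.7 in brain (log2 difference 6.89, SE 0.76, adjusted p = 2.1e-05). The testis and epididymis values of Trps1 overlapped. Slamf7, a self-binding receptor of the SLAM family, had 828, 942 and 1015 in testis, 465, 339 and 264 in epididymis and 0, 3.34 and 6.22 in brain (log2 difference 7.49, SE 0.60, adjusted p = 9.9e-07). Wfdc17, a small secreted protein, had 369, 626 and 730.1 in testis, 222, 313 and 358 in epididymis and 0.911, 4.46 and 0 in brain (log2 difference 7.53, SE 0.66, adjusted p = 2.4e-06). For both genes the testis libraries were the higher ones of the tract, although the difference between the organs was not called. Cd69, a lectin-like activation receptor, had 213, 423 and 240.2 in testis, 324, 316 and 61.5 in epididymis and 0.911, 0 and 0 in brain. Only 1 brain read of Cd69 was counted over 3 libraries, and the ratio of read rates was 849.6-fold (exact 95% interval 152 to 33577), an interval that covers counting error only. Ifi211, a member of the interferon-inducible p200 family, had 137, 161 and 119.7 normalised reads in testis and 172, 275 and 292 in epididymis and no read in brain. Set against 3 reads per brain library, Ifi211 was at least 66.1-fold higher in the tract. Tnp1 and Prm1, which also belong to the 12 largest differences, are sperm chromatin genes and are described with the other cell types.

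**Figure D2:**
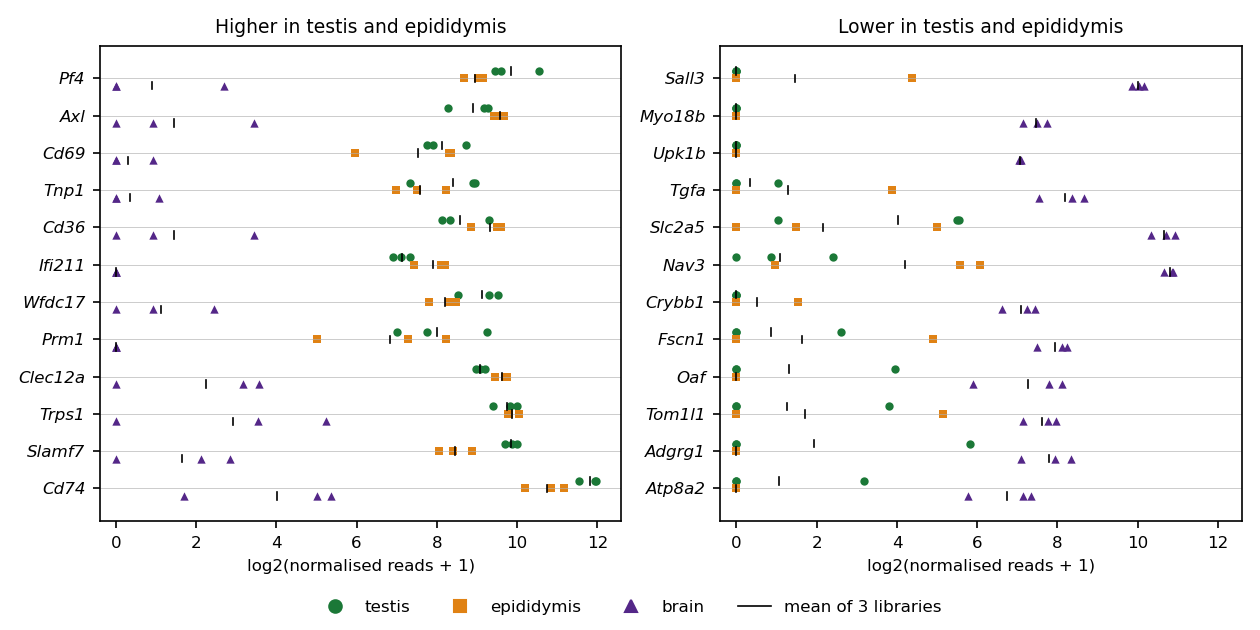
Log2(normalised reads + 1) is shown for the 12 shared genes with the largest differences in each direction, 1 symbol per library, with green circles for testis, orange squares for epididymis, violet triangles for brain and a short line at each mean of 3. On the left all tract symbols lie to the right of the brain symbols, on the right the order is turned, and several genes are at 0 in brain or in tract libraries.

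Of 16 tested genes of MHC class II presentation, 6 were shared and higher than in brain and none lower, against 4.10% and 3.08% of all tested genes: Cd74, H2-Ab1, H2-Aa, H2-Eb1, Ciita and H2-DMa. H2-Aa, the alpha chain of the I-A molecule (chr17:34282744-34287823, minus strand), had 12632, 15012 and 16153 normalised reads in testis, 5805, 5110.1 and 4031 in epididymis and 72.0, 45.7 and 60.4 in brain (log2 difference 7.15, SE 0.19, adjusted p = 3.3e-12). H2-Ab1, its beta chain (chr17:34257689-34269419, plus strand), had 6890.0, 7061 and 9686 in testis, 4088, 2756 and 2635 in epididymis and 45.5, 25.6 and 31.1 in brain (log2 difference 7.17, SE 0.23, adjusted p = 2.5e-11). In both genes tract and brain lay far apart, and within the tract the testis libraries were above those of the epididymis without overlap. H2-Eb1, the beta chain of the I-E molecule, had 2636, 3046 and 3465 in testis, 1385, 955 and 964 in epididymis and 37.3, 1.11 and 35.6 in brain (log2 difference 6.98, SE 0.66, adjusted p = 5.3e-06). Cd74, the invariant chain that guards the groove of class II molecules until they are loaded, had 2995, 4004 and 3945 in testis, 1852, 1172 and 2283 in epididymis and 40.1, 2.23 and 31.1 in brain (log2 difference 7.26, SE 0.58, adjusted p = 1.0e-06). Ciita, the coactivator that switches class II genes on, had 687, 379 and 606 in testis, 239, 452 and 360.1 in epididymis and 4.55, 0 and 18.7 in brain (log2 difference 6.49, SE 0.74, adjusted p = 2.9e-05), and H2-DMa, a chain of the molecule that helps to load peptides, had 235, 344 and 268 in testis, 420.0, 275 and 162 in epididymis and 19.1, 24.5 and 113 in brain (log2 difference 2.81, SE 0.54, adjusted p = 0.0029). For these 4 genes the tract organs were not called different. Exons of H2-DMa overlap those of Brd2, and exons of Ciita those of Dexi. The kit does not mark the strand, so reads from these overlaps cannot be told apart. The remaining 10 tested genes of the list, among them Rfx5, Cd86 and H2-Oa, were not shared, and the median over the 16 was 0.26. Dendritic and B cells also carry class II molecules. Of 10 tested dendritic cell markers none was shared and higher and 1, Siglech, was lower, and of 7 tested B cell markers none was shared in either direction by limma (1 at an unadjusted p below 0.05, and 0 by edgeR or DESeq2). The dendritic list, which holds Siglech, took 2.36 to 3.21 of 10000 normalised reads in testis, 2.92 to 4.59 in epididymis and 9.23 to 10.99 in brain. In brain most of this sum was Siglech, a gene that the microglia list also holds, with 2539, 3002 and 2564 normalised reads. The median log2 difference over the 10 tested dendritic cell markers was 1.06, higher in the tract. The B cell list took 0.978 to 1.55 in testis, 1.32 to 1.77 in epididymis and at most 1.91 in brain. The part of such cells in the class II differences was not tested.

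Of 19 tested genes of MHC class I presentation 4 were shared and higher and 1 lower (3 to 5 and 0 to 1 across the alternatives). Over all tested genes the shares were 4.10% and 3.08%. The lower gene was Calr, which encodes the chaperone calreticulin, a call lost without the variance trend (adjusted p = 0.13). H2-D1, a heavy chain found on nearly all cells, had 11139, 11359 and 11348 normalised reads in testis, 8230.0, 6783 and 7966 in epididymis and 1559, 1708 and 1866 in brain (log2 difference 2.44, SE 0.14, adjusted p = 2.9e-08), so its transcript was abundant in brain as well. H2-K1, the other classical heavy chain of this strain, had 2456, 2392 and 3058 in testis, 2109, 1989 and 1817 in epididymis and 357, 853 and 559 in brain (log2 difference 2.03, SE 0.23, adjusted p = 2.8e-05). H2-Q7 and H2-K1 have close relatives in the same locus, and no source used here says how reads shared between copies were counted.

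The H2 genes of the class II list lie together on chromosome 17, and class II promoters share a short element known as the Y box, CCAAT, which the factor NF-Y binds. RefSeq promoters (GRCm38.p6, 250 bases before to 50 after the start) were at hand for 11 of the 16 tested genes. CCAAT on either strand was found in 10 of the 11 (90.9%), against 42.8% of 9295 tested genes with a promoter and 41.1% of all 27025 promoters. Where a gene has more than 1 promoter in the table, a match in any of them was counted, and with first promoters alone the shares were 81.8% of the 11, 38.8% of tested genes and 37.9% of all. Of the 3 shared genes with a promoter, H2-Aa and H2-Eb1 held it in the first and H2-DMa only in its alternative promoter. For the 482 higher genes as a whole, 370 with a promoter, the share was 42.7%. The promoters of H2-Aa (chr17:34287774-34288073, minus strand) and H2-Eb1 (chr17:34305617-34305916, plus strand) are given, with CCAAT or its reverse complement ATTGG in capitals. These 2 are the shared class II genes that held it in the first promoter. For the shared genes H2-Ab1, Cd74 and Ciita no promoter was at hand.
H2-Aa: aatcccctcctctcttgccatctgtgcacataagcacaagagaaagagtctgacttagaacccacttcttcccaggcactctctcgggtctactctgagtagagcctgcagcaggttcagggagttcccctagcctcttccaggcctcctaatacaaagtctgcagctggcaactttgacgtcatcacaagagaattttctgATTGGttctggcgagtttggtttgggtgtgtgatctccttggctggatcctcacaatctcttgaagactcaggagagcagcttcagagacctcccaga
H2-Eb1: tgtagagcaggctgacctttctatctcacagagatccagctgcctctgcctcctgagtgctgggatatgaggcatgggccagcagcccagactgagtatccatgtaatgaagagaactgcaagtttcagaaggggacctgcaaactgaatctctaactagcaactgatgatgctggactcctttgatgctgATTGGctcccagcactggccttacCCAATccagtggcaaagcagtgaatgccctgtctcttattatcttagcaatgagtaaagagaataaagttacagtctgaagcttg
The capitals lie 48 bases before the start in H2-Aa, and 59 and 35 before it in H2-Eb1. A match is a description of the letters and no measurement of binding.

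Of 21 tested genes of the type I interferon response 9 were shared and higher and none lower (6 to 9 higher across the alternatives), among them Ifit3, Oas2, Ifit2, Irf7, Mx1, Oas1a, Ifi27l2a and Oasl2. The median log2 difference over the 21 was 1.91 between tract and brain, and -0.10 between testis and epididymis. Ifit2, which binds foreign RNA, had 188, 187 and 93.2 normalised reads in testis, 361, 382 and 333 in epididymis and 0, 37.9 and 5.33 in brain (log2 difference 5.21, SE 0.89, adjusted p = 0.0013). Ifit3, its partner, had 195, 167 and 206 in testis, 455, 76.9 and 275 in epididymis and 10.0, 0 and 17.8 in brain (log2 difference 5.09, SE 0.90, adjusted p = 0.0016). Brain replicate 1 had no read of Ifit2 and brain replicate 2 none of Ifit3, and the lowest tract value of Ifit3 was that of epididymis replicate 2. Oas1a, one of the enzymes that start RNA decay when they meet double-stranded RNA, had 399.6, 223 and 212 in testis, 161, 184 and 154 in epididymis and 56.5, 11.1 and 7.999 in brain (log2 difference 3.52, SE 0.61, adjusted p = 0.0014). Oas2 had 58.0, 82.4 and 23.9 normalised reads in testis, 48.2, 6.57 and 76.5 in epididymis and none in brain, at least 16.9-fold higher, but the adjusted p was 0.054 to 0.064 when any 1 brain library was left out. Irf7, a transcription factor of the interferon response, had a log2 difference of 4.90 (adjusted p = 0.0031), a call lost without the variance trend. Mx1 was not called without testis replicate 2 or 3, epididymis replicate 1 or 2, or brain replicate 2 (adjusted p between 0.052 and 0.079).

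The p200 genes encode sensors of DNA and are induced by interferon. They form a cluster on chromosome 1 (173566283 to 173942672, GENCODE M21 on GRCm38) in which 5 of 6 tested genes were shared and higher. The bounds of this and the later clusters run from the first to the last of neighbouring shared genes. The share of shared genes within them is thus high by selection. Mndal had 652, 833 and 896 normalised reads in testis, 1188, 1123 and 1129 in epididymis and 18.2, 36.8 and 48.9 in brain (log2 difference 4.84, SE 0.31, adjusted p = 1.0e-07), and Ifi203 595, 748 and 629 in testis, 1025, 731 and 925 in epididymis and 26.4, 74.7 and 21.3 in brain (log2 difference 4.41, SE 0.36, adjusted p = 1.4e-06). Ifi213 had 92.1, 257 and 303 in testis, 605, 309.5 and 551 in epididymis and 21.9, 0 and 9.78 in brain (log2 difference 5.59, SE 0.83, adjusted p = 0.00039). Ifi211, described above, and Ifi209, which was not called without epididymis replicate 2 or any 1 brain library (adjusted p between 0.053 and 0.079), complete the 5, and Ifi204 was not shared. The exons of Mndal and Ifi203 overlap, the family has near-identical members and the kit does not mark the strand, so reads may have been split among them in ways that cannot be seen here. The Oas cluster on chromosome 5 (120730333 to 120907521) had 4 of 6 tested genes on the same side, Oas2, Oas3, Oas1g and Oas1a. Oas1g was at 0 in all brain libraries. Oas1g was not called without brain replicate 1 (adjusted p = 0.055) or 2 (0.051). Oas3 lost its call without each library other than epididymis replicate 3 (adjusted p between 0.054 and 0.20), and these copies share sequence too.

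A core of the interferon-stimulated response element, GAAANNGAA on either strand, was found in the promoters of 8 of 14 tested interferon genes with a RefSeq promoter (57.1%), against 8.91% of the 9295 tested genes with one and 9.76% of all promoters. It was found in 12.97% of the 370 higher genes with a promoter. Of the 5 shared interferon genes with a promoter it was found in Ifit3 and Oas1a. These promoters follow, for Ifit3 chr19:34583279-34583578 on the plus strand and for Oas1a chr5:120907476-120907775 on the minus strand, with the element or its reverse complement in capitals.
Ifit3: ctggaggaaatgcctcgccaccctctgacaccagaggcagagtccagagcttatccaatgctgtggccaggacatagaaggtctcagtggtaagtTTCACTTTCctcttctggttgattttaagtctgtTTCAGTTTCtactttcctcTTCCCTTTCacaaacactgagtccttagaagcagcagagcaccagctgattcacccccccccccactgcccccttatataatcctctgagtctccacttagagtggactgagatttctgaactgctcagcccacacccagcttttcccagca
Oas1a: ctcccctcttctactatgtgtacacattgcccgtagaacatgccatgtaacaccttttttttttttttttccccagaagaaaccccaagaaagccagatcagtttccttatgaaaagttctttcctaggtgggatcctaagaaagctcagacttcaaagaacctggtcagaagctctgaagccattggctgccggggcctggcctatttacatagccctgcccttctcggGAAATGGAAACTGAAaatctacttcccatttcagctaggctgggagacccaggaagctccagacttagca
The matches start 155, 121 and 102 bases before the start of Ifit3 and 20 and 14 before that of Oas1a, where the last overlap each other.

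Receptors for uptake, lipid genes and lectins were found among the shared higher genes. Of 22 tested C-type lectins and scavenger receptors 6 were higher and 2 lower (4 to 7 and 0 to 4 across the alternatives). Mrc1, the mannose receptor CD206 (chr2:14229392-14332057, plus strand), had 1895, 2248 and 2631 normalised reads in testis, 1645, 1726 and 1523 in epididymis and 71.0, 80.3 and 40.9 in brain (log2 difference 4.93, SE 0.24, adjusted p = 4.1e-09). Testis was slightly above epididymis, with a difference that was not called, and both were far above brain. Clec4a2, an inhibitory lectin receptor, had 980.4, 1015 and 1007 in testis, 972, 1082 and 1106 in epididymis and 348, 375 and 322 in brain (log2 difference 1.56, SE 0.19, adjusted p = 4.9e-05), a narrow spread in every organ. Lrp1 and Scarb2, receptors that carry cargo to endosomes and lysosomes, were the 2 lower ones, and Scarb2 was not called without the variance trend, with the tract as 1 group (adjusted p = 0.24) or without brain replicate 3 (0.054). In epididymis alone Scarb2 was not called against brain. Lrp1 had 977, 704 and 626 in testis, 1242, 1238 and 1324 in epididymis and 2147, 2059 and 2168 in brain (log2 difference -1.12, SE 0.18, adjusted p = 0.00079), lost without the variance trend.

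Of 23 tested genes of lipid uptake, storage and efflux, 4 were higher (Cd36, Apoc1, Apoe and Lpl) and Abca9, a lipid transporter, was lower (4 to 7 and 0 to 2 across the alternatives). Abca9 was not called in 4 of 21 alternatives, among them without brain replicate 1 (adjusted p = 0.15) or 2 (0.089). Apoe, which carries lipid between cells (chr7:19696109-19699188, minus strand), had 6696, 2878 and 8182 normalised reads in testis, 102571, 102287 and 112096 in epididymis and 882, 895 and 633 in brain (log2 difference 4.91, SE 0.25, adjusted p = 7.8e-09). Apoe was above brain in each tract organ, and epididymis was far above testis. Lpl, which splits triglycerides, had 1023, 1667 and 1254 in testis, 940.0, 784 and 894 in epididymis and 180.3, 329 and 292 in brain (log2 difference 2.03, SE 0.24, adjusted p = 4.6e-05). Apoc1, a neighbour of Apoe, was at 74.5, 37.2 and 61.6 normalised reads in testis, 54.5, 23.4 and 52.8 in epididymis and 0 in brain, at least 17.4-fold higher.

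Fc receptors and SLAM family genes split, with 4 of 18 higher and 3 lower (2 to 4 on each side across the alternatives). Slamf9 had 2537, 4289 and 2343 normalised reads in testis, 1813, 1755 and 1659 in epididymis and 230.4, 193 and 335 in brain (log2 difference 3.20, SE 0.23, adjusted p = 4.2e-07), a second SLAM gene beside Slamf7 on the higher side. Cd84, of the same family, had 165, 225 and 225 in testis, 835, 823 and 824 in epididymis and 1424, 1232 and 1107 in brain (log2 difference -1.60, SE 0.21, adjusted p = 0.00012) and was lower, a call lost with the tract as 1 group. Fcgr2b, the inhibitory Fc receptor, was lower too (log2 difference -0.995, SE 0.19, adjusted p = 0.0027), lost without the variance trend. In epididymis alone neither Cd84 nor Fcgr2b was called against brain (adjusted p = 0.22 and 0.13). Receptors for dying cells also divided. Axl was higher and Mertk, its relative, lower, with 536, 241 and 358 normalised reads in testis, 933, 1059 and 1513 in epididymis and 5965, 5883 and 3844 in brain (log2 difference -2.999, SE 0.25, adjusted p = 1.7e-06). Cd300ld was higher (log2 difference 3.13, SE 0.64, adjusted p = 0.0048) and Elmo1, which links uptake receptors to the cytoskeleton, lower (log2 difference -1.55, SE 0.23, adjusted p = 0.00044), and with Lrp1 the list counted 2 higher and 3 lower of 14.

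Of 28 tested chemokines and cytokines 8 were higher and 2 lower (7 to 9 and 0 to 2 across the alternatives), and 18 were not shared. Cxcl16, a membrane-bound chemokine that also binds oxidised lipoprotein, had 1845, 2251 and 1794 normalised reads in testis, 1697, 2105 and 2210.1 in epididymis and 172, 144 and 153 in brain (log2 difference 3.65, SE 0.19, adjusted p = 7.8e-09). Testis and epididymis overlapped, and every tract library was far above every brain library. Cxcl2, a neutrophil attractant, had 6595, 6098 and 25746 in testis, 3581, 1408 and 1941 in epididymis and 46.5, 129 and 176 in brain (log2 difference 5.50, SE 0.46, adjusted p = 1.6e-06), with testis replicate 3 above all others. Il1b, the gene of interleukin 1 beta, had 466, 301 and 431 in testis, 232, 284 and 189.7 in epididymis and 19.1, 30.1 and 18.7 in brain (log2 difference 3.71, SE 0.41, adjusted p = 2.1e-05). Ccl5, which attracts T cells, had 259, 246 and 162 in testis, 101, 49.7 and 87.3 in epididymis and 18.2, 0 and 0 in brain (log2 difference 5.60, SE 1.06, adjusted p = 0.0028), and Igf1, the growth factor, 437, 191 and 574 in testis, 348, 287 and 384 in epididymis and 5.46, 20.1 and 29.3 in brain (log2 difference 4.45, SE 0.54, adjusted p = 5.4e-05). Cxcl10, an interferon-induced chemokine, had 185, 287 and 359 in testis, 935, 906 and 1229 in epididymis and 138, 132 and 146 in brain (log2 difference 1.91, SE 0.28, adjusted p = 0.00031), with testis much nearer to brain than epididymis was. Cxcl1 had 2 brain reads in all and a ratio of 74.5-fold (exact 95% interval 20.5 to 618), and was not called without brain replicate 2 (adjusted p = 0.054) or 3 (0.052). Csf1, the growth factor of macrophages, was lower, but not without brain replicate 1 (adjusted p = 0.080) or 3 (0.070). Ccl9 was lower too, and was not called without any 1 library other than testis replicate 1 or epididymis replicate 3 (adjusted p between 0.056 and 0.18). Pf4, Cxcl1 and Cxcl2 lie in 1 span of chromosome 5 (90772435 to 90905938), which holds Cxcl15 as the other tested gene, which was not shared.

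Of 25 genes of immediate early and dissociation stress responses, 4 were higher and none lower (2 to 7 and 0 to 2 across the alternatives). Nr4a2 had 633, 221 and 352 normalised reads in testis, 68.2, 159 and 39.9 in epididymis and 34.6, 0 and 1.78 in brain (log2 difference 5.18, SE 1.02, adjusted p = 0.0036) and Fosl2 591, 580.0 and 910.5 in testis, 545, 379 and 400.0 in epididymis and 192, 179 and 202 in brain (log2 difference 1.505, SE 0.26, adjusted p = 0.0012). Such genes can be switched on while tissue is digested, the digestion was the same in the 3 organs per the labels' protocols, and the part of digestion in the differences was not tested.

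Among monocyte-associated genes, 5 of 15 were higher and 2 lower (4 to 5 and 0 to 2 across the alternatives). Lyz2, the lysozyme of myeloid cells, had 3023, 1768 and 5189 normalised reads in testis, 3008, 2767 and 1120.2 in epididymis and 236, 426 and 189 in brain (log2 difference 3.24, SE 0.36, adjusted p = 2.4e-05). Ifitm3, an antiviral membrane protein, had 517, 659 and 249 in testis, 582, 543 and 339 in epididymis and 23.7, 56.9 and 21.3 in brain (log2 difference 3.85, SE 0.43, adjusted p = 2.1e-05), and Cd52 1796, 2271 and 2947 in testis, 1707, 1685 and 1168 in epididymis and 130.2, 137 and 267 in brain (log2 difference 3.45, SE 0.26, adjusted p = 5.8e-07). S100a8 and S100a9, which form the neutrophil protein calprotectin, were lower, with 104, 62.4 and 89.8 and 209, 22.3 and 80.9 normalised reads in brain and 0 in 5 of the 6 tract libraries each. Of 23 S100, annexin, galectin and related genes, 7 were higher, among them Lgals3 (log2 difference 4.12, SE 0.80, adjusted p = 0.0033), Vim (log2 difference 4.84, SE 0.77, adjusted p = 0.00067) and Anxa5 (log2 difference 4.82, SE 0.97, adjusted p = 0.0044), and the only 2 lower ones were again S100a8 and S100a9, which passed the filter through brain alone. Ly6c2, the gene of the Ly6C that the sort excluded, had 101, 63.0 and 80.4 in testis, 0, 0.938 and 32.3 in epididymis and 8.20, 46.8 and 6.22 in brain, overlapping values without a call.

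Of 25 integrins and adhesion receptors 4 were higher and 5 lower (2 to 5 and 2 to 6 across the alternatives). Among these, the calls of Itgal (higher) and Itgb3 (lower) failed in 15 and 8 of 21 alternatives, for Itgal without any 1 of the 9 libraries (adjusted p between 0.060 and 0.20) and for Itgb3 without testis replicate 2 or 3 or any 1 brain library (between 0.060 and 0.21). Cd44, the receptor for hyaluronan, was higher, with 510.4, 542 and 439 normalised reads in testis, 131, 252 and 129 in epididymis and 13.7, 36.8 and 2.67 in brain (log2 difference 4.49, SE 0.64, adjusted p = 0.00026). Selplg, the ligand of selectins, was lower, with 804, 742 and 639 in testis, 733, 452 and 588 in epididymis and 5801, 4843 and 5114 in brain (log2 difference -3.01, SE 0.19, adjusted p = 8.3e-08), and its testis and epididymis values overlapped.

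Housekeeping groups were counted in the same way. Of 28 tested ribosomal protein genes 18 were shared and higher and none lower, with a median log2 difference of 1.60, and across the alternatives between 13 and 23 were higher. Rpsa had 3159.8, 3774 and 3416 normalised reads in testis, 1868, 1312 and 1351 in epididymis and 530.1, 387 and 729 in brain (log2 difference 2.09, SE 0.21, adjusted p = 9.4e-06), and Rpl32 1002, 1297 and 2227 in testis, 1046, 434 and 403 in epididymis and 177, 130.4 and 241 in brain (log2 difference 2.34, SE 0.34, adjusted p = 0.00031). Testis was called above epididymis for 14 of the 18. In the single contrasts with brain, all 18 were called in testis and 10 in epididymis. Ribosomal protein genes have many processed copies in the genome and some hold small RNA genes, so reads may have been lost or shared there. Of 32 nuclear genes of oxidative phosphorylation, 6 were higher and none lower, and across the alternatives between 2, without the variance trend, and 8 were higher. In the single contrasts with brain, all 6 were called in testis and 1 in epididymis. Cox6c, for example, had 1799, 1849 and 3373 in testis, 1540.0, 1265 and 733 in epididymis and 476, 483 and 508 in brain (log2 difference 1.70, SE 0.25, adjusted p = 0.00041). Of 17 iron and heme genes, 3 were higher and 1 lower (2 to 5 and 0 to 1 across the alternatives), and Ftl1, the ferritin light chain, had 1468, 1886 and 2625 in testis, 2524, 1448 and 1573 in epididymis and 615, 396 and 790.1 in brain (log2 difference 1.69, SE 0.26, adjusted p = 0.00046). Of 23 cell division genes, 3 were higher (3 to 6 across the alternatives). Mki67, a marker of cycling cells, had 146, 235 and 101 in testis, 244, 68.5 and 75.5 in epididymis and 6.38, 0 and 0 in brain (log2 difference 6.05, SE 1.03, adjusted p = 0.0012), and Cenpa, a centromeric histone, 299, 427 and 357 in testis, 465, 693 and 613 in epididymis and 60.1, 218 and 95.1 in brain (log2 difference 2.07, SE 0.37, adjusted p = 0.0016). In bulk libraries, more cells of a kind and more RNA per cell cannot be told apart. None of 19 cholesterol synthesis genes and none of 20 glycolysis genes were shared by limma. Unadjusted p was below 0.05 for 2 and 8 of them, edgeR found 0 and 0 shared, and DESeq2 1 and 0.

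**Figure D3:**
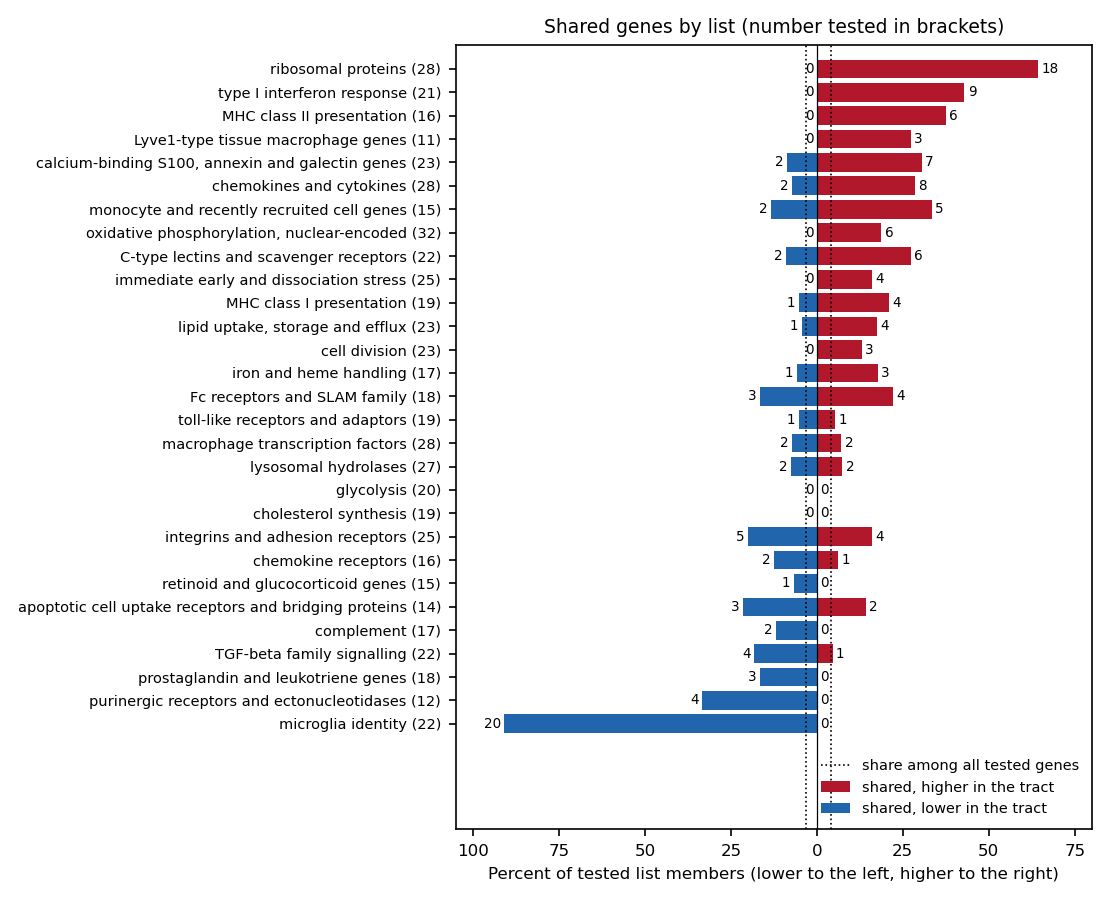
For each gene list the bars give the percentage of its tested members that were shared and higher (red, to the right) or lower (blue, to the left), with the number of genes at each bar's end and the number tested in brackets. The dotted lines mark the shares among all tested genes, 4.10% and 3.08%, and the lists of ribosomal proteins (18 of 28) and microglia identity (20 of 22) lie at the ends.

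On the lower side stood the genes by which microglia are recognised. Of 22 tested microglia identity genes 20 were shared and lower and none higher, with a median log2 difference of -3.85. Crybb1, among the 20, passed the filter through brain alone, so its place in the count supports nothing. Set against brain by itself, testis was called lower for all 20 and epididymis for 14, without Trem2, Gpr34, Tgfbr1, Olfml3, P2ry13 and Ltc4s. Of the other 2 tested genes, Bhlhe41 had 117, 152 and 64.1 normalised reads in testis, 701, 788 and 653 in epididymis and 990.0, 1061 and 662 in brain, where the highest epididymis values reached into the brain range, and Gpr84 missed the call (adjusted p = 0.076). Leaving out any 1 library or changing the scaling, filter or tool gave between 17 and 21.

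The transcription factor genes Sall1 and Sall3 were nearly absent from the tract. Sall1, which maintains the microglial state, had 25.9, 12.1 and 13.7 normalised reads in testis, 0, 0 and 30.2 in epididymis and 805, 518 and 656 in brain (log2 difference -6.46, SE 1.151, adjusted p = 0.0017). Sall3 had 1149, 1043 and 928 normalised reads in brain and 0 in 5 of 6 tract libraries, with 0, 19.7 and 0 in epididymis (log2 difference -9.29, SE 1.31, adjusted p = 0.00024). Among other factors Zfhx3 was lower, with 1245, 989.6 and 999 in testis, 1544, 1641 and 1807 in epididymis and 3752, 3641 and 2857 in brain (log2 difference -1.35, SE 0.17, adjusted p = 7.4e-05). Runx3, which is known from cytotoxic lymphocytes and some tissue macrophages, was higher, with 646, 729 and 580.5 in testis, 378, 344 and 667 in epididymis and 76.5, 19.0 and 45.3 in brain (log2 difference 3.69, SE 0.40, adjusted p = 2.0e-05). Of 28 factors 2 were shared on each side (1 to 4 higher and 1 to 6 lower across the alternatives). Over all tested genes 4.10% were shared and higher and 3.08% lower. Spi1, the gene of the macrophage factor PU.1, completed the higher factors and Mef2a the lower ones. Neither was called without the variance trend, without brain replicate 1 (adjusted p = 0.087 and 0.070) or without brain replicate 2 (0.12 and 0.085).

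Of the receptors and other membrane proteins of the list, Cx3cr1, the fractalkine receptor (chr9:119901616-120069879, minus strand), had 2001, 2297 and 2516 normalised reads in testis, 7739, 7424 and 7989.9 in epididymis and 15092, 14205 and 17072 in brain (log2 difference -1.88, SE 0.14, adjusted p = 5.8e-07). Brain was highest, epididymis lay between and testis was lowest, without overlap between any 2 organs. Tmem119, a membrane protein used to tell microglia from other macrophages, had 349.9, 180.2 and 172 in testis, 1378, 1324 and 1567 in epididymis and 3196, 2876 and 3479 in brain (log2 difference -2.50, SE 0.23, adjusted p = 3.7e-06). Trem2, a lipid-sensing receptor, had 549, 481 and 408 in testis, 2372, 1698 and 2253 in epididymis and 3232, 3096 and 3332 in brain (log2 difference -1.69, SE 0.18, adjusted p = 1.2e-05), a call lost when testis and epididymis were fitted as 1 group. Siglech, a sialic acid-binding receptor, had 131, 192 and 117 in testis, 208, 356 and 782 in epididymis and 2539, 3002 and 2564 in brain (log2 difference -3.51, SE 0.33, adjusted p = 5.3e-06). Fcrls had 155, 55.7 and 136 in testis, 1305, 916 and 1436 in epididymis and 3456, 3728 and 3933 in brain (log2 difference -3.37, SE 0.29, adjusted p = 1.8e-06), and Gpr34, a receptor for lysophosphatidylserine, 282, 146 and 196 in testis, 490.0, 661 and 979 in epididymis and 1279, 1157 and 1296 in brain (log2 difference -1.74, SE 0.27, adjusted p = 0.00047). The epididymis libraries were the nearer ones to brain in each of these genes.

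Of Sparc, Slc2a5, Nav3 and Crybb1, which also belong to the microglia list, only Sparc was called different between testis and epididymis. Sparc, a secreted matrix protein, had 354, 312 and 712 normalised reads in testis, 74.5, 75.04 and 96.0 in epididymis and 10226, 11068 and 11251 in brain (log2 difference -5.85, SE 0.25, adjusted p = 9.4e-10), with testis nearer to brain. Slc2a5, the fructose transporter GLUT5, had 1.04, 46.0 and 44.5 in testis, 1.82, 31.0 and 0 in epididymis and 1672, 1289 and 1964 in brain (log2 difference -7.56, SE 1.17, adjusted p = 0.00055), low in both organs. Nav3, a microtubule-binding protein known from neurons, had 0, 0.808 and 4.27 in testis, 46.4, 0.938 and 65.8 in epididymis and 1889.9, 1867 and 1607 in brain (log2 difference -8.16, SE 1.10, adjusted p = 0.00017). Crybb1, a lens crystallin gene also known from microglia, had 2 reads in 1 tract library against 149, 172 and 96.9 normalised reads in brain. Its ratio of read rates, brain over tract, was 443-fold (exact 95% interval 122 to 3666).

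Beyond the microglia list, Myo18b and Upk1b were found in brain libraries alone. Myo18b, an unconventional myosin, had 211, 179 and 141 normalised reads in brain and no read in 6 tract libraries, at least 63.1-fold lower. Upk1b, a tetraspanin of the urinary tract lining, had 132, 130.4 and 135, at least 47.1-fold lower. Both are among the 57 genes that passed the filter through brain alone. Tgfa, a ligand of the epidermal growth factor receptor, had 1.04, 0 and 0 normalised reads in testis, 13.6, 0 and 0 in epididymis and 329.7, 186 and 407 in brain (log2 difference -7.38, SE 1.32, adjusted p = 0.0018). Atp8a2, a phospholipid flippase, had 0, 8.08 and 0 in testis, 0, 0 and 0 in epididymis and 161, 140.5 and 53.3 in brain (log2 difference -6.22, SE 1.25, adjusted p = 0.0044), and Oaf 0, 0 and 14.5 in testis, 0, 0 and 0 in epididymis and 58.3, 218 and 277 in brain (log2 difference -6.60, SE 1.34, adjusted p = 0.0045). The 3 genes were at 0 in most tract libraries. Fscn1, Adgrg1 and Tom1l1 complete the 12, and their calls were lost with DESeq2. Tom1l1 was also not called without any 1 brain library (adjusted p between 0.057 and 0.079).

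Purinergic receptors are used by microglia to sense nucleotides from damaged cells. Of 12 tested genes of that list 4 were lower and none higher, and 8 were not shared. P2ry12, the receptor for ADP (chr3:59216272-59262871, minus strand), had 122, 12.9 and 112 normalised reads in testis, 340.0, 300.2 and 153 in epididymis and 2717, 2015 and 2889 in brain (log2 difference -4.38, SE 0.55, adjusted p = 7.4e-05), and P2ry13, its neighbour on chromosome 3, 5.18, 68.7 and 21.4 in testis, 464, 309.5 and 333 in epididymis and 960.0, 759 and 1484 in brain (log2 difference -3.55, SE 0.56, adjusted p = 0.00067), a call lost when the tract was fitted as 1 group. Adora3, an adenosine receptor, had 62.1, 25.9 and 42.7 in testis, 101, 120.1 and 206 in epididymis and 514, 463 and 657 in brain (log2 difference -2.83, SE 0.42, adjusted p = 0.00036). P2ry12 lies within Med12l and shares exon positions with it, so the reads of the pair cannot be told apart without strand.

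Signalling by transforming growth factor beta was represented by 4 lower genes of 22, with 1 higher (1 to 5 and 0 to 1 across the alternatives). In the single contrasts with brain, all 5 were called in testis and 1 in epididymis. Smad7, which limits the signal and is itself induced by it, had 51.8, 235 and 174 normalised reads in testis, 475, 329 and 293 in epididymis and 1164, 1429 and 848 in brain (log2 difference -2.38, SE 0.40, adjusted p = 0.001). Ski, a repressor of the same pathway, had 655, 776 and 863 in testis, 1302, 1580.5 and 1252 in epididymis and 2201, 2419 and 2178 in brain (log2 difference -1.148, SE 0.17, adjusted p = 0.00042), and Itgb5, an integrin chain that can release the factor from its latent form, 160.5, 99.4 and 139 in testis, 575, 547 and 271 in epididymis and 969, 649 and 597 in brain (log2 difference -1.59, SE 0.31, adjusted p = 0.0036). Tgfbr1, a receptor chain that the microglia list also holds, was the fourth. The calls of Ski, Itgb5 and Tgfbr1 were lost without the variance trend, as was that of the higher gene Acvrl1, and Itgb5 was also lost with the tract as 1 group. Sgk1, a kinase gene that glucocorticoids induce, was lower, with 172, 227 and 151 in testis, 223, 153 and 181 in epididymis and 925, 1150.4 and 1253 in brain (log2 difference -2.59, SE 0.27, adjusted p = 1.1e-05), and was the only shared gene among 15 of the retinoid and glucocorticoid list.

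The counts of the next lists are to be read against 4.10% shared and higher and 3.08% shared and lower over all tested genes. Of 16 chemokine receptors 2 were lower, among them Cx3cr1, and Ccrl2 was higher (0 to 2 higher across the alternatives). Ccrl2 was not called without testis replicate 3 (adjusted p = 0.051), epididymis replicate 2 (0.061), brain replicate 1 (0.15) or brain replicate 2 (0.16). Prostaglandin and leukotriene genes had 3 lower of 18 and none higher (1 to 3 and 0 to 1 across the alternatives). In the single contrasts with brain, all 3 were called in testis and none in epididymis. Hpgds, which makes prostaglandin D2 in hematopoietic cells, had 409, 446 and 501 normalised reads in testis, 1458, 909.8 and 1291 in epididymis and 2005, 1769 and 1691 in brain (log2 difference -1.31, SE 0.20, adjusted p = 0.00043), a call lost with the tract as 1 group. Ptgs1, the enzyme COX-1, had 0, 23.4 and 49.6 in testis, 1234, 1019 and 1003 in epididymis and 1722, 1556 and 1258 in brain (log2 difference -3.80, SE 0.82, adjusted p = 0.0073). In Ptgs1 the epididymis lay just under brain and testis close to 0, and its call was lost without the variance trend and with the tract as 1 group. Lysosomal hydrolases had 2 on each side of 27 (0 to 4 higher and 1 to 2 lower across the alternatives). Ctsd, cathepsin D, had 40.4, 98.6 and 243 in testis, 1265, 1146 and 958 in epididymis and 1974, 1936 and 2169 in brain (log2 difference -2.60, SE 0.39, adjusted p = 0.00038), lost with the tract as 1 group, and Ctsl, cathepsin L, 159, 221 and 437 in testis, 547, 538 and 486 in epididymis and 1087, 1634 and 2129.6 in brain (log2 difference -2.11, SE 0.30, adjusted p = 0.00027). In epididymis alone Ctsd was not called against brain (adjusted p = 0.37). Of 17 complement genes, 2 were lower, among them Itgam, and none higher, and of 19 toll-like receptor genes Tlr2 was higher (log2 difference 2.32, SE 0.43, adjusted p = 0.0023) and Tlr3 lower (log2 difference -1.39, SE 0.32, adjusted p = 0.011), which was not called without brain replicate 2 (adjusted p = 0.062) or 3 (0.056). In epididymis alone Tlr3 was not called against brain (adjusted p = 0.41).

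Transcripts of other cell types were counted beside these results. Germ cell genes were shared and higher for 5 of 11 tested markers, Tnp1, Prm1, Tnp2, Ldhc and Prm2, and none was lower. Over all tested genes 4.10% were shared and higher and 3.08% lower. Tnp1, Prm1, Tnp2 and Ldhc passed the filter on low values through the tract alone. They could be shared only as higher, and their place in this count supports nothing. Prm1, a protamine that packs sperm DNA, had 213, 128 and 608 normalised reads in testis, 296, 155 and 31.3 in epididymis and 0 in brain, at least 81.8-fold higher. Tnp1, the transition protein that precedes protamines, had 478, 159 and 492 in testis, 182, 301 and 125 in epididymis and 0, 1.11 and 0 in brain, and a ratio of 903-fold (exact 95% interval 162 to 35673) with 1 brain read. Prm2 had 219, 169 and 457 in testis, 104, 167 and 71.2 in epididymis and 0, 13.4 and 0 in brain (log2 difference 6.10, SE 0.99, adjusted p = 0.00082). Round and elongating spermatids are known to make these transcripts. The summed list of 15 germ cell markers, 13 of them in the table, took 3.81 to 7.34 of 10000 normalised reads in testis, 2.49 to 3.89 in epididymis and 1.06 to 1.22 in brain. In brain 7 of the 13 were at 0, in epididymis 2, and in testis none. Prm1, Prm2 and Tnp2 lie in 1 cluster on chromosome 16 with Prm3, which was tested and not shared.

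Leydig cell markers took 4.73 to 12.01 per 10000 in testis, 0.179 to 1.19 in epididymis and 0.689 to 1.05 in brain, and none of 9 tested was shared. Unadjusted p was below 0.05 for 7 of the 9, edgeR found 0 shared and DESeq2 1. Markers of the epididymal epithelium took 1.54 to 2.15 per 10000 in epididymis, at most 0.191 in testis and 0.143 in brain. T and NK cell markers took 2.32 to 2.98 in testis, 0.590 to 0.896 in epididymis and 0.299 to 0.785 in brain, and Cd3e, Cd8a, Cd8b1, Lck and Nkg7 were at 0 in every brain library. Fibroblast and smooth muscle markers took 0.733 to 1.04 in testis and at most 0.761 in epididymis and 0.220 in brain. Of these Dcn was shared and higher, and was not called without any 1 brain library (adjusted p between 0.094 and 0.11) or without testis replicate 1 and epididymis replicate 3 together (0.064). Of neuronal, oligodendrocyte and endothelial markers no organ held more than 2.09 per 10000. Astrocyte markers took 1.87 to 2.32 in brain and at most 1.29 in the tract. There Aqp4, at 0 in the tract, and Slc1a3 were shared and lower, the latter not called without any 1 brain library (adjusted p between 0.075 and 0.11). Aldh1l1, Aldoc, Fgfr3 and Clu, of the same list, went the other way, at 0 in every brain library and with reads in the tract. Neutrophil markers took 1.57 to 2.77 in brain and at most 1.28 in the tract. The lower genes S100a8 and S100a9, described above, belong to that list, as does Csf3r, which was not called without any 1 brain library (adjusted p between 0.067 and 0.13). Of the 9 neutrophil markers in the table, only Ly6g, the antigen that defines neutrophils, was at 0 in every brain library. Camp, Ltf, Ngp and Retnlg had reads in brain and were at 0 in every tract library. The part of these cells in the shared differences was not tested.

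The brain also holds macrophages at its borders, in the meninges and along vessels. Their markers took only 0.501 to 0.772 per 10000 in brain, against 10.7 to 16.1 in testis and 21.1 to 22.6 in epididymis, and Cbr2 and Cd209f were at 0 in brain. Of 7 tested markers 4 were shared and higher, Pf4, Clec12a, Mrc1 and Ms4a7, none lower. Ms4a7, a membrane protein with tetraspan topology, had 446, 178 and 570.2 normalised reads in testis, 4073, 3567 and 4329.7 in epididymis and 134, 138 and 106 in brain (log2 difference 3.24, SE 0.31, adjusted p = 5.3e-06). The lowest tract value, in testis replicate 2, lay close above brain, and the epididymis values were far higher. The list of 15 general macrophage genes took 184 to 185 per 10000 in brain, 150 to 170 in epididymis and 96.0 to 119 in testis, and all 15 were found in every organ. Csf1r, the receptor on which macrophages depend, was lower in the tract (log2 difference -1.02, SE 0.15, adjusted p = 0.00032), a call lost without the variance trend and with the tract as 1 group.

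**Figure D4:**
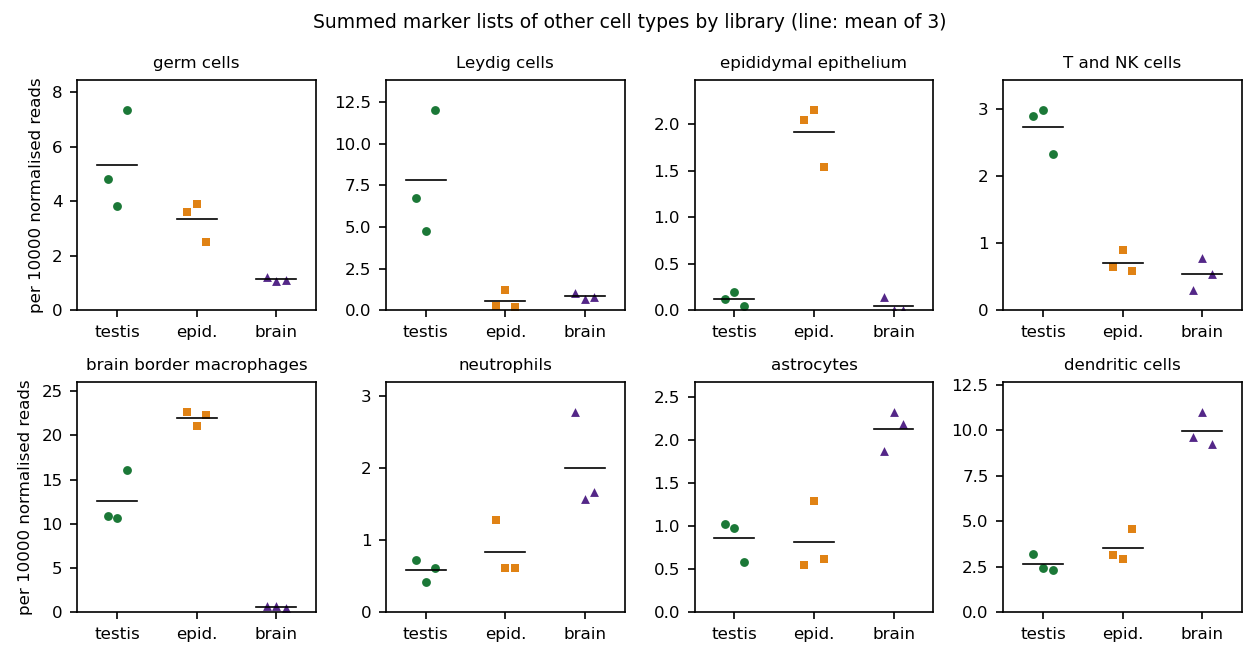
Each panel gives the summed normalised reads of 1 marker list per 10000 of all normalised reads, with 1 symbol per library and a line at the mean of 3. Germ cell markers lie at 3.81 to 7.34 in testis, 2.49 to 3.89 in epididymis and 1.06 to 1.22 in brain, while border macrophage markers are below 1 in brain and above 10 in the tract. The vertical axes differ between panels and start at 0.

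How alike the tract organs were was tested within the shared genes. In this balanced layout the testis against epididymis contrast is orthogonal to the tract against brain contrast, but both are judged by the same residual variance of a gene, so the 2 shares that follow are given as a description. Over all tested genes it was called for 516 (4.39%), and among the 844 shared genes for 140 (16.6%). Of the 482 higher genes, 66 were higher in testis and 9 in epididymis. Of the 362 lower genes, 6 were higher in testis and 59 in epididymis. On both sides most called genes thus had the epididymis nearer to brain, and 704 genes were not called. By size alone the epididymis was nearer to brain for 69.3% of the higher and 65.7% of the lower genes, against 56.9% of all tested genes.

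Genes of the microglia list followed that pattern, since 9 of the 20 shared genes were higher in epididymis than in testis and only Sparc was higher in testis. H2-Aa and H2-Ab1 were higher in testis, with log2 differences between the organs of 1.56 and 1.33 (adjusted p = 0.00088 and 0.0096). Apoe, Ms4a7 and Cxcl10 went against it, higher than brain in both organs and higher in epididymis than in testis by -4.29, -3.48 and -1.92, written as testis minus epididymis (adjusted p = 1.6e-06, 5.3e-05 and 0.0024). With 1 variance prior for all levels the 140 fell to 23, and without epididymis replicate 2 to 92.

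**Figure D5:**
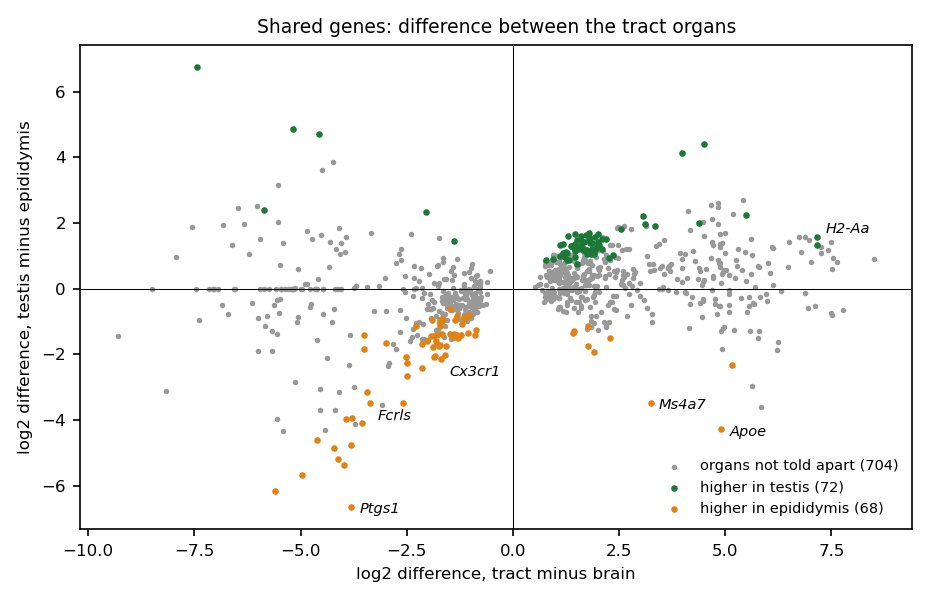
Each point is 1 of the 844 shared genes, with the log2 difference tract minus brain on the horizontal axis and testis minus epididymis on the vertical axis. The 72 green points were called higher in testis and the 68 orange points higher in epididymis, and grey points are the 704 not called. Orange points lie mainly on the left, where the tract was lower than brain, and green points on the right.

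Each tract organ was also set against brain by itself, with the same 3 brain libraries in both. Both organs were called with the same sign for 408 of the 844 shared genes (3.47% of those tested), 270 higher and 138 lower. The testis alone was called for 326, the epididymis alone for 59 and neither for 51, for which the average of the organs reached the threshold and the single contrasts did not. H2-Aa, Mrc1, Cxcl16, Selplg, Cx3cr1 and Sgk1 are among the genes called in both organs. Ptgs1, with 1234, 1019 and 1003 normalised reads in epididymis against 1722, 1556 and 1258 in brain, was called in testis alone.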

How the data were processed

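RNA of sorted CD45+ F4/80+ cells of 3 organs was sequenced in 9 libraries, 3 per organ, grouped by their labels, with replicates numbered in accession order. The deposited values are a signal per gene, which the authors made as reads assigned to a gene divided by 1 factor per library. The submitters' processing notes list CASAVA 1.8, Bowtie2 2.2.1, Partek 6.6, DESeq2 and the mm10 build, and state neither the counting rule nor the annotation. Every value (100%) was a whole multiple of what 1 read is worth in its library, to within 1e-06 reads, so the reads were recovered: 2727092 to 4458688 per library. Values are called normalised reads here.

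From these values log2(value + 1) was fitted for all genes that reached 10 in at least 3 libraries, with limma 3.58.1 in R 4.3.3 (1 mean per organ, eBayes with a variance trend, Benjamini-Hochberg adjustment over 11766 genes). Every adjusted p without another tool named is limma's. edgeR 4.0.16 and DESeq2 1.42.0 were run on the recovered reads as alternatives, beside other scalings, pseudocounts and filters, the tract as 1 group, and each library left out in turn. Folds and ratios for genes at or near 0 use the recovered reads, with 3 reads per library as the floor. Symbols were matched to GENCODE M21 (15252 of 15434 genes), RefSeq (40) or a synonym (82), and 60 stayed unmatched. Exons of further named genes, such as Cxcl16 (with Zmynd15) and Adora3 (with Tmigd3), also overlap those of another gene. Promoter sequences are RefSeq's. The scripts were tested on simulated data.

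The members and gene lists were chosen with earlier results of these data known. Genes named are the 12 largest shared differences in each direction, ranked by the smaller of both organs' differences among genes at or above the median level of 110 normalised reads, the genes of the sort markers, and for every list up to 3 shared members on each side by the same ranking. Aqp4, Bhlhe41, Ciita, Clec4a2, Csf1r, Csf3r, Cxcl10, Cxcl16, Cxcl2, Dcn, Gpr34, Gpr84, H2-DMa, H2-Eb1, Ifi203, Ifi209, Ifi213, Ifi27l2a, Il1b, Irf7, Ldhc, Lpl, Med12l, Mndal, Ms4a7, Mx1, Oas1a, Oas1g, Oas3, Oasl2, Olfml3, Prm2, Sall1, Siglech, Slc1a3, Sparc, Tgfbr1, Tmem119, Tnp2 and Trem2 were chosen after their values were seen, as were the other genes that complete a list's count. Some genes are not reported here.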

Additional observations from a re-analysis of the deposited data

Results flagged for a closer look

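Testis and epididymis were tested against each other within the fit of all 3 organs. Of the genes named, 32 had a called difference (limma adjusted p below 0.05), which is also a difference between the effects of the organs against brain, since both are set against the same brain libraries. Over all tested genes 4.39% were called. Differences below are log2, testis minus epididymis. Groups of 3 libraries are too small for a test of single outlying libraries.

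Shared genes of the microglia list with the lowest values in testis had negative differences: Olfml3 at -4.84, Fcrls at -3.49, P2ry13 at -4.10, Tmem119 at -2.68, Trem2 at -2.13, Cx3cr1 at -1.77, Gpr34 at -1.76, Siglech at -1.42 and Tgfbr1 at -1.07. In epididymis by itself Olfml3, P2ry13, Trem2, Gpr34 and Tgfbr1 were not called against brain. Bhlhe41, at -2.76, was not called against brain over both organs with separated values. Sparc, a matrix protein of the same list, was the exception at 2.38, which is higher in testis.

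Other genes lower than brain showed the same order. Ptgs1, the enzyme COX-1, was at -6.65, Med12l, which overlaps P2ry12, at -4.77, Csf3r, the receptor for granulocyte colony-stimulating factor, at -3.95, and Ctsd, cathepsin D, at -3.48. Smaller differences were found for Cd84 (log2 difference -2.02), Itgb5 (-1.74), Mertk (-1.67), Itgam (-1.61), Tlr3 (-1.48), Scarb2 (-1.42), Hpgds (-1.41), Ski (-0.85) and Csf1r (-0.81).

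Among genes higher than brain, the class II chains H2-Aa (1.56) and H2-Ab1 (1.33), the chemokine gene Cxcl2 (2.24) and the ribosomal gene Rpsa (1.21) were higher in testis. Apoe (-4.29), Ms4a7 (-3.48) and Cxcl10 (-1.92) were higher in epididymis. Itgax, whose protein CD11c the sort excluded, was at -6.50, with reads in all 3 epididymis libraries and in 1 testis library.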

How the results depend on the processing

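Under other scalings, pseudocounts, filters, count tools and a tract fitted as 1 group, 661 to 909 genes were shared, against 844. Other settings moved counts by more than 1.5 times. Without the variance trend 554 genes were shared, 227 of them lower, 207 were called in both organs and 23 differed between testis and epididymis. At an adjusted p below 0.01, 540 were shared and 207 lower. With both organs called on their own 408 were left, 270 higher and 138 lower. With single libraries left out, shared genes numbered 568 to 912, higher ones 392 to 538, lower ones 176 to 381, those called in both organs 247 to 386 and those that differed between the tract organs 92 to 165. The smallest counts of shared, higher, lower and doubly called genes came without brain replicate 1, and 92 came without epididymis replicate 2. The causes were not tested, beyond fewer libraries in these fits.

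Of 147 named genes that were shared, 94 stayed called in every setting in which they were tested. Among these, Aqp4, S100a8, S100a9, Crybb1, Myo18b, Upk1b and Atp8a2 fell below the filter and were not tested when any brain library was left out. Calls were lost for 34 genes without the variance trend and for 25 with the tract as 1 group. Ly6c2, not called in any of these settings, turned from a log2 difference of 0.30 to -0.47 without epididymis replicate 3, -0.043 without brain replicate 1, -0.22 without brain replicate 3 (highest, without brain replicate 2, 1.147) and -0.55 without testis replicate 1 and epididymis replicate 3 together. No paired analysis was possible because the labels give no replicate numbers that pair libraries across organs. With 3 libraries per organ and 2727092 to 4458688 reads in each, small differences of low genes could not be seen.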

Other observations

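In 3 genes the values lay on opposite sides of brain in the tract organs, each organ called against brain by limma and testis called against epididymis, and so belong to no count of shared genes. Klf4, a zinc-finger transcription factor, had 7915, 6457 and 5146 normalised reads in testis, 1564, 1842 and 1837 in epididymis and 2739.7, 5478 and 2919.7 in brain. Its testis was above brain (log2 difference 0.86, adjusted p = 0.035) but overlapped it, and its epididymis was below brain (-1.02, adjusted p = 0.027). Pmepa1, which limits signalling by transforming growth factor beta and is induced by it, had 420.3, 349 and 565 in testis, 6060.0, 5772 and 6361 in epididymis and 3477, 3265 and 2184 in brain. Its testis libraries were below every brain library (log2 difference -2.74) and its epididymis libraries above every one (1.06). Trpm2, a calcium channel gene, had 256, 135 and 223 in testis, 2207, 2201 and 2165.9 in epididymis and 668, 682 and 591 in brain, with log2 differences of -1.70 and 1.76. The 3 genes were named after their values were seen, and the 2 contrasts with brain share its libraries.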
